A study of Sus scrofa with 16 samples.

Results

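Heat shock proteins and DNAJ proteins are the chaperones that fold newly made proteins and refold damaged ones. Transcripts of 56 such genes were measured in pituitaries of pigs with low and high feed conversion. The members were chosen by name alone: a gene of the deposited symbol table counted as a member when its symbol began with HSPA, HSPB, HSPD, HSPE, HSPH or HSP90, or with DNAJA, DNAJB or DNAJC, and held a number after these letters or, for HSP90, within them. This gave 21 HSP genes and 35 DNAJ genes among 11433 genes with a symbol in that table and 25880 genes in the count table. All 56 members had enough counts to be tested, the lowest with 732 counts over the 16 libraries.

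The HSP70 proteins, encoded by HSPA genes, bind unfolded stretches of other proteins in a cycle driven by ATP. DNAJ proteins, also called J proteins or HSP40, deliver the substrate and start the ATP cycle, and each compartment of the cell has its own set. Heat shock factor 1 switches on a cytosolic set under heat or other stress, whereas most other members are made all the time. The anterior pituitary exports large amounts of protein hormone, which fold in the endoplasmic reticulum with HSPA5, also called BiP, as the resident HSP70.

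The animals were 16 female pigs of the Pulawska breed, fed and housed alike. Replicates 1 to 8 had a low feed conversion ratio (LFC) and replicates 9 to 16 a high one (HFC), so each group held 8. A low ratio means that less feed is eaten for the same growth. Both groups carry an age label of 3 months, while the methods of the study put slaughter at an older age and describe unrelated animals from several farms. The study also reports more days in test, lower daily gain and higher daily feed intake for the HFC animals of this breed. Feed conversion cannot be told apart from these traits here. Whole glands were homogenised, so every level is an average over all cell types of the gland, and fewer cells of a type cannot be told apart from less RNA per cell.

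The libraries held between 10.97 and 23.06 M counts, averaging 18.4 ± 3.36 M for LFC and 15.2 ± 3.24 M for HFC (SD, n = 8 each). LFC replicate 5, HFC replicate 13 and HFC replicate 14 stood apart on the first principal component of log2 CPM (counts per 1000000 of the scaled library), at 126, 75.1 and 56.6, with all other libraries between -53.41 and 11.3. HFC replicate 16 stood apart on the second. The scaling factor of LFC replicate 5 was 0.751, below the range of 0.907 to 1.125 in the other 15 libraries. Hormone genes of the anterior lobe, which define the tissue, had a summed level of 52380 to 166000 CPM over 5 genes in LFC and 13950 to 169300 CPM in HFC. Single hormone genes were not abundant in every library. TSHB was at -2.49 log2 CPM in HFC replicate 16, 0.56 in HFC replicate 11 and 2.59 in HFC replicate 15. PRL and CGA were also lowest in HFC replicate 16, at 8.11 and 10.7 log2 CPM. Values that move most with the libraries standing apart are also given without them.

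The first question was whether any chaperone transcript differed between HFC and LFC. A gene was called when edgeR gave an adjusted p no higher than 0.05 and the change reached 1.3-fold. Of the 56 members edgeR called 0, as it called 0 of all 14319 genes tested (0%). A p given as exact permutation p is two-sided and tests the difference in mean log2 CPM of that gene, not adjusted for the number of genes. DESeq2 called 20 genes of the whole table and 0 of them were members. For this breed the study reports many more genes from DESeq2 at the same limits of adjusted p and fold, a gap that was not examined. At an unadjusted p under 0.05, edgeR left 1 member, HSPA5, against 5.82% of all genes tested. HSPA5 was lower in HFC, where 1.53% of all genes tested passed, and 0 members were higher, where 4.29% passed. These member counts were too small to set them apart from the background. By sign, 28 members were higher and 28 lower in HFC, with a median log2 fold change of 0.00, beside -0.01 over all genes tested.

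The log2 fold changes of the members had smaller errors than that of the typical gene. Their standard errors of the log2 fold change ran from 0.08 to 0.35 with a median of 0.15, beside a median of 0.21 over all genes tested. The 95% interval lay within a 1.3-fold change either way for 24 members, within 1.5-fold for 44 and within 2-fold for 55. DNAJC6 was the member whose interval reached further, from -1.03 to 0.42 on the log2 scale. The absolute log2 fold change was under 0.1 for 32 members. For 26 members the sign of the log2 fold change turned when some single library was left out, among them DNAJB2 and DNAJC17, at 0.11 and 0.07 without LFC replicate 5. Between animals of a group, the SD of log2 CPM was below that of genes of like level for 41 of the 56 members and above it for 15, with a median ratio of 0.838.

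**Figure D1:**
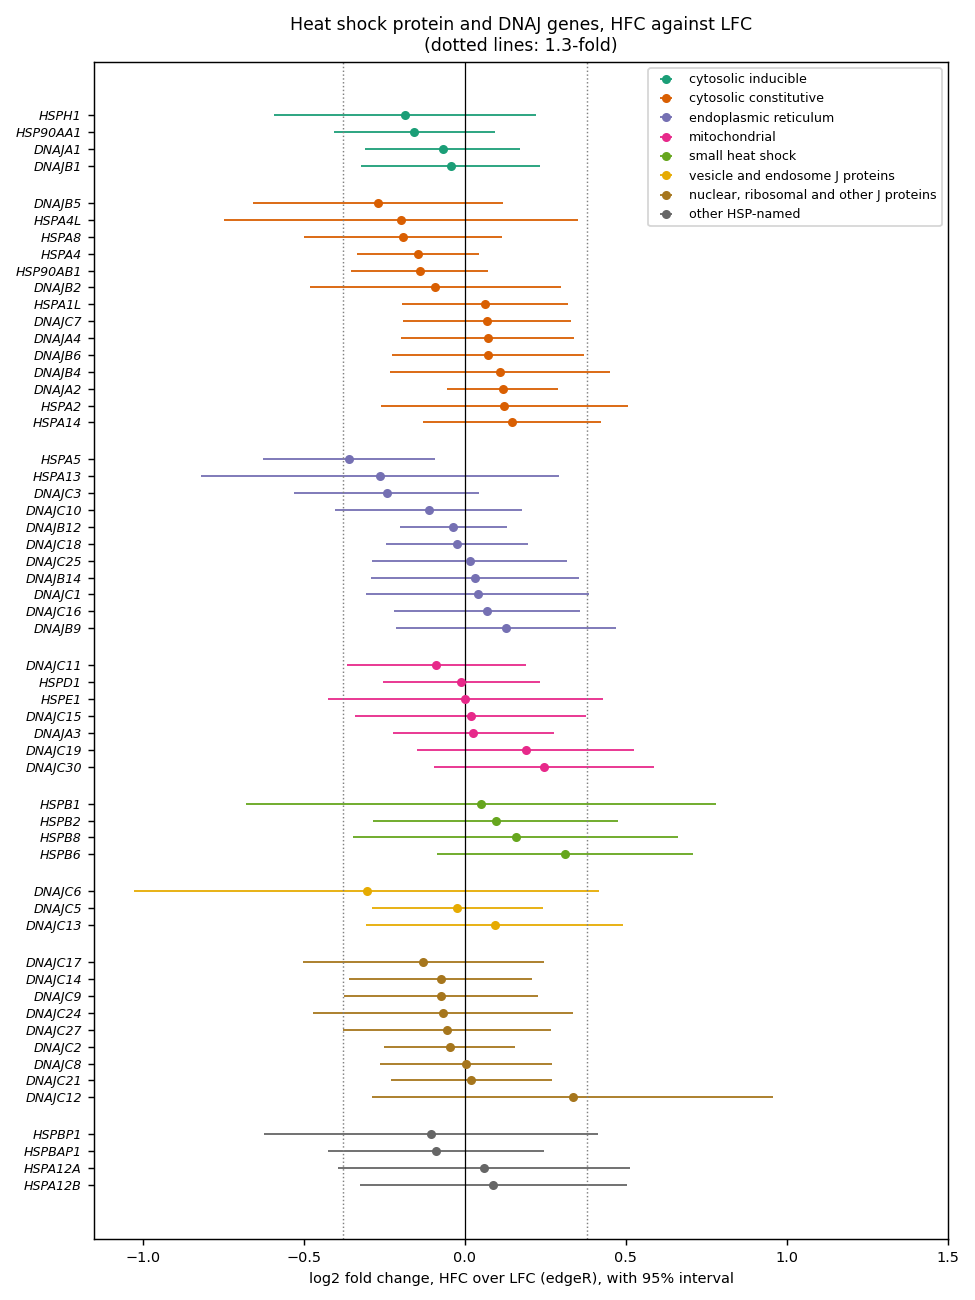
Log2 fold change of the 56 members, HFC over LFC, from edgeR, with 95% intervals. Members are grouped by role and ordered by value, and the dotted lines mark a 1.3-fold change. Of all intervals, that of HSPA5, from -0.63 to -0.09, is the one that leaves out 0.

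The inducible cytosolic chaperones came first, because they are the classical readout of a heat shock response. This group held HSP90AA1 (HSP90 alpha), HSPH1 (HSP110, which resets HSP70 by nucleotide exchange) and the J proteins DNAJB1 and DNAJA1. All 4 had a negative log2 fold change, from -0.19 to -0.04, and 0 of the 4 had an unadjusted p under 0.05 in edgeR.

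HSP90AA1 (ENSSSCG00000002535, on an unplaced scaffold) had a lowest, median and highest level of 1823, 2049 and 2399 CPM in LFC and of 1416, 1812 and 2411 CPM in HFC. The groups overlapped over most of their range, since the highest HFC library, replicate 13, lay above every LFC library and HFC replicate 16 was the lowest of all. HFC over LFC gave a log2 fold change of -0.16 (SE 0.12, exact permutation p = 0.0968).

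HSPH1 (ENSSSCG00000009334, chromosome 11, 7733878 to 7759528) had 108.5, 202.5 and 321.1 CPM in LFC and 132.5, 165.3 and 254.7 CPM in HFC. Both extremes were LFC libraries, replicate 5 at the bottom and replicate 8 at the top, so the HFC values lay inside the LFC range. The log2 fold change was -0.19 (SE 0.19, exact permutation p = 0.458), and moved to -0.28 when LFC replicate 5 was left out and to -0.07 when LFC replicate 8 was.

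DNAJB1 (ENSSSCG00000013784, chromosome 2, 64761206 to 64765510), the main cytosolic J partner of inducible HSP70, had 66.7, 102.2 and 125.9 CPM in LFC and 66.0, 98.9 and 126.2 CPM in HFC. The ranges of the groups were nearly the same, and each group had 1 library near 66 CPM. For DNAJB1 the log2 fold change was -0.04 (SE 0.13, 95% interval -0.32 to 0.24, exact permutation p = 0.725). DNAJA1 (ENSSSCG00000011000), a farnesylated J protein, had 291.8, 345.9 and 411.9 CPM in LFC and 246.5, 324.1 and 395.8 CPM in HFC, with a log2 fold change of -0.07 (SE 0.11, exact permutation p = 0.446).

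The inducible HSP70 itself carried no symbol in the deposited table and so was no member. A gene on chromosome 7 (ENSSSCG00000029160) is named HSP70.2 in the RefSeq gene table, with HSPA1A and HSPA1B among its synonyms. It had 344.2, 479.9 and 700.1 CPM in LFC and 392.6, 497.7 and 683.7 CPM in HFC, with a log2 fold change of 0.09 (SE 0.15, exact permutation p = 0.507). Its direction was thus opposite to that of the 4 inducible members, with groups that overlapped almost fully. HSP70 copies are near-identical, so the split of reads between HSP70.2, HSPA1L and others is uncertain.

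The other cytosolic members, 14 genes, were grouped as constitutive, and whether stress raises any of them was not tested. Of these, 8 were higher and 6 lower in HFC, with a median log2 fold change of 0.07. HSPA8 (HSC70, ENSSSCG00000015140, chromosome 9, 49978078 to 49988038), the constitutive HSP70 that also uncoats clathrin vesicles, had 1532, 2151 and 2996 CPM in LFC and 1391, 2027 and 2275 CPM in HFC. LFC replicates 5 and 8, at 2996 and 2916 CPM, lay above every HFC library, and HFC replicate 16 was the lowest. The log2 fold change was -0.19 (SE 0.15, exact permutation p = 0.199), and it was -0.12 without LFC replicate 5.

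HSP90AB1 (HSP90 beta, ENSSSCG00000001701, chromosome 7, 39237294 to 39254002) had 1017, 1281 and 1329 CPM in LFC and 954.5, 1092 and 1327 CPM in HFC. In 7 of 8 HFC libraries it was below the LFC mean of log2 CPM, although HFC replicate 15 was as high as the top LFC libraries. Its log2 fold change was -0.14 (SE 0.10, exact permutation p = 0.0668). Among genes of like level it was steady between animals, with a within-group SD 0.323 times theirs.

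HSPA4 (ENSSSCG00000014292), an exchange factor of the HSP110 family, had 146.9, 168.8 and 197.9 CPM in LFC and 137.5, 152.3 and 183.0 CPM in HFC. It too was below the LFC mean in 7 of 8 HFC libraries, with a log2 fold change of -0.15 (SE 0.09, exact permutation p = 0.0525). DNAJA2 (ENSSSCG00000002846), a J partner of HSPA8, lay the other way, with 66.7, 77.8 and 87.2 CPM in LFC and 78.2, 82.95 and 99.1 CPM in HFC. Of 8 HFC libraries 7 exceeded the LFC mean, with a log2 fold change of 0.12 (SE 0.08, exact permutation p = 0.0751). For both genes the ranges overlapped.

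DNAJB5 (ENSSSCG00000005297), a close relative of DNAJB1, had 68.9, 92.1 and 151.8 CPM in LFC and 51.3, 73.5 and 108.3 CPM in HFC, with a log2 fold change of -0.27 (SE 0.18, exact permutation p = 0.172) that was -0.15 without LFC replicate 8. HSPA4L (ENSSSCG00000009077), another HSP110, had 11.8, 33.5 and 46.2 CPM in LFC and 14.2, 27.5 and 53.8 CPM in HFC, a log2 fold change of -0.20 (SE 0.26, exact permutation p = 0.482). In HSPA4L the low values came from the same 3 libraries that stood apart, LFC replicate 5 and HFC replicates 14 and 13. Without these 3 its log2 fold change was -0.13, and it was -0.40 without HFC replicate 9 and -0.10 without HFC replicate 14. The other 8 genes, DNAJA4, DNAJB2, DNAJB4, DNAJB6, DNAJC7, HSPA14, HSPA1L and HSPA2, had log2 fold changes between -0.09 (DNAJB2) and 0.15 (HSPA14).

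**Figure D2:**
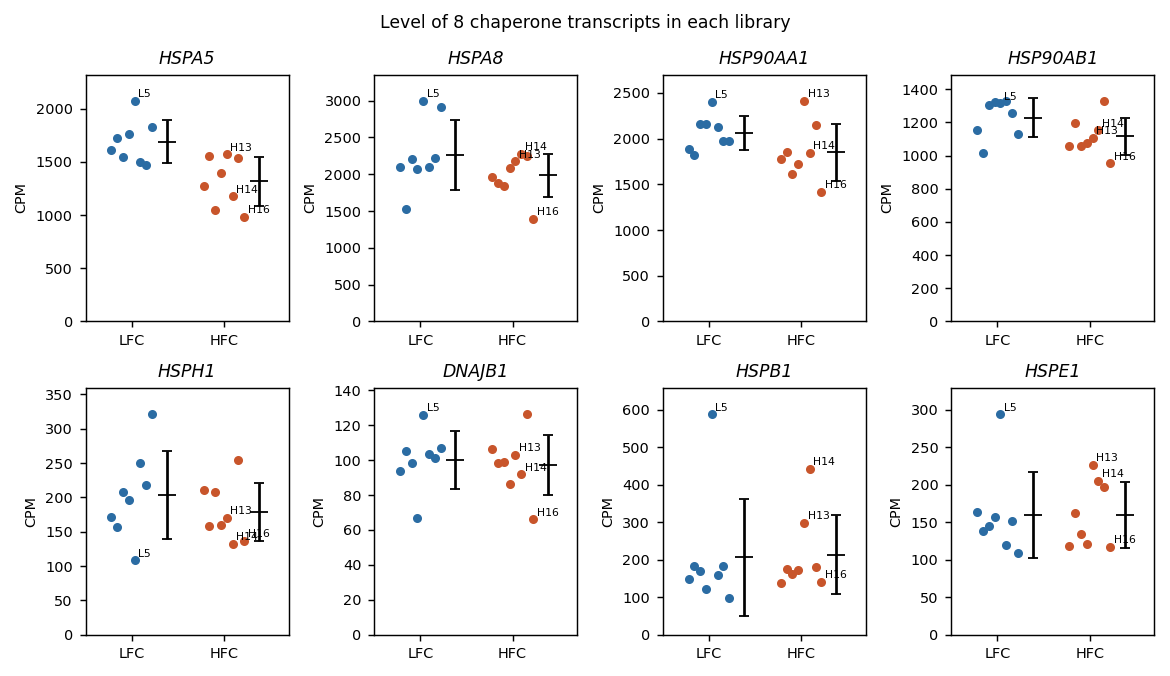
Level of 8 chaperone transcripts in each library, in CPM on a linear axis from 0. Points are libraries, bars give the mean ± SD of 8 libraries, and L5, H13, H14 and H16 mark LFC replicate 5 and HFC replicates 13, 14 and 16. HSPA5 shows the clearest shift between the groups, with 1472 to 2071 CPM in LFC and 984.7 to 1571 CPM in HFC, while in HSPB1 and HSPE1 the high points are libraries that stand apart.

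The endoplasmic reticulum members were headed by HSPA5 (ENSSSCG00000005601, chromosome 1, 265930042 to 265947997), which binds proteins as they enter the compartment and holds the stress sensors inactive. It had a lowest, median and highest level of 1472, 1668 and 2071 CPM in LFC and of 984.7, 1334 and 1571 CPM in HFC. All 8 HFC libraries lay below the LFC mean of log2 CPM, but the groups overlapped, since HFC replicates 13, 10 and 15, at 1571, 1550 and 1533 CPM, were above the lowest LFC library. On average HSPA5 reached 1689 ± 199.9 CPM among LFC animals and 1316 ± 232 CPM among HFC animals (SD, n = 8 each).

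The log2 fold change of HSPA5 was -0.36 (SE 0.13, 95% interval -0.63 to -0.09), with an unadjusted p of 0.0116 and an adjusted p of 0.654 in edgeR, so it did not pass. The exact permutation test gave p = 0.00404. The difference was smaller than the 1.3-fold minimum. Leaving out each library in turn moved the log2 fold change between -0.40 (HFC replicate 10 left out) and -0.31 (HFC replicate 16 left out), and it was -0.34 without the 3 libraries that stood apart and -0.26 without LFC replicate 5 and HFC replicate 16. The unadjusted p was under 0.05 in each of these fits, and the lowest adjusted p on leaving out 1 library was 0.368.

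DNAJC3 (ENSSSCG00000026082), a luminal J protein also known as an inhibitor of the kinase PERK, had 52.2, 66.5 and 75.7 CPM in LFC and 39.7, 56.2 and 71.1 CPM in HFC. The HFC libraries fell into 4 between 39.7 and 46.9 CPM, all below the lowest LFC library, and 4 between 65.5 and 71.1 CPM, inside the LFC range. Its log2 fold change was -0.24 (SE 0.14, exact permutation p = 0.0701). HSPA13 (ENSSSCG00000012007), a microsomal HSP70, had 77.2, 210.6 and 324.9 CPM in LFC and 77.9, 183.0 and 269.2 CPM in HFC, with a log2 fold change of -0.26 (SE 0.26, exact permutation p = 0.373). Its 3 lowest values were those of LFC replicate 5, HFC replicate 14 and HFC replicate 13. The log2 fold change was -0.18 without these 3, -0.39 without LFC replicate 5 and -0.15 without LFC replicate 8.

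The other 8 genes of the compartment had log2 fold changes from -0.11 (DNAJC10, a J protein with thioredoxin domains that reduces disulphides) to 0.13 (DNAJB9, the J partner that returns HSPA5 to the sensor IRE1). They were DNAJB12, DNAJB14, DNAJC1, DNAJC10, DNAJC16, DNAJC18, DNAJC25 and DNAJB9. In all, 5 of the 11 endoplasmic reticulum members were higher and 6 lower, with a median of -0.02. DNAJB12, a membrane J protein of this compartment, had the smallest standard error of all members, 0.08, and a log2 fold change of -0.04. The summed level of the 11 members was 2229, 2436 and 2755 CPM in LFC and 1684, 2103 and 2328 CPM in HFC (lowest, median and highest). Most of this sum was HSPA5 alone, which averaged 1689 CPM in LFC and 1316 CPM in HFC.

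Chaperones that work with HSPA5 but carried no symbol in the deposited table were named through a separate table of gene symbols. HSP90B1 (GRP94, ENSSSCG00000000849), the HSP90 of the endoplasmic reticulum, had 689.7, 812.9 and 1578 CPM in LFC and 503.6, 675.4 and 1003 CPM in HFC. For HSP90B1 the log2 fold change was -0.32 (SE 0.18, exact permutation p = 0.105), which was -0.16 without LFC replicate 5, the library at 1578 CPM. DNAJB11 (ENSSSCG00000011798), a luminal J partner of HSPA5, was at -0.18 on the log2 scale (SE 0.18, exact permutation p = 0.443), and of 0.00 without the same library.

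A wider list of 23 genes of endoplasmic reticulum folding and of its stress response had 21 genes with a negative and 2 with a positive log2 fold change, and a median of -0.24. Over all genes tested, 48.4% were higher. Of the list, 0 were called and 3 had an unadjusted p under 0.05 in edgeR, all lower in HFC. HERPUD1, a membrane protein of the degradation pathway, had 124.8, 158.0 and 207.6 CPM in LFC and 105.4, 127.0 and 155.5 CPM in HFC, with a log2 fold change of -0.31 (SE 0.11, exact permutation p = 0.0112, adjusted p = 0.680 in edgeR). PDIA4, a disulphide isomerase, was at -0.24 (SE 0.11, edgeR adjusted p = 0.850), and HYOU1, the HSP110 of this compartment and exchange factor of HSPA5, at -0.26 (SE 0.12, edgeR adjusted p = 0.857). HERPUD1 and PDIA4 were below the LFC mean in 8 of 8 HFC libraries and HYOU1 in 7 of 8.

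The most negative value of the list was that of SDF2L1 at -0.85 (SE 0.43, exact permutation p = 0.3004), which was -0.30 without LFC replicate 5. The positive ones were those of ATF4 at 0.31, which was -0.17 without HFC replicate 14, and PPP1R15A at 0.08, which was -0.0090 without HFC replicate 13. The number of genes lower in HFC ranged from 19 to 22 over the alternative tests, scalings, filters and left-out libraries, an analysis chosen after the values were seen. The median was -0.17 without LFC replicate 5 and -0.13 without LFC replicate 5 and HFC replicate 16. Hormone genes of the anterior lobe moved with the list: 5 of 5 had a negative log2 fold change with a median of -0.39, with PRL (prolactin) at -1.86 (SE 0.71, edgeR adjusted p = 0.719). The summed median level of the 5 tested hormone genes was 128600 CPM in LFC and 79040 CPM in HFC. Their part in the lower HSPA5 and folding gene levels was not tested.

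**Figure D3:**
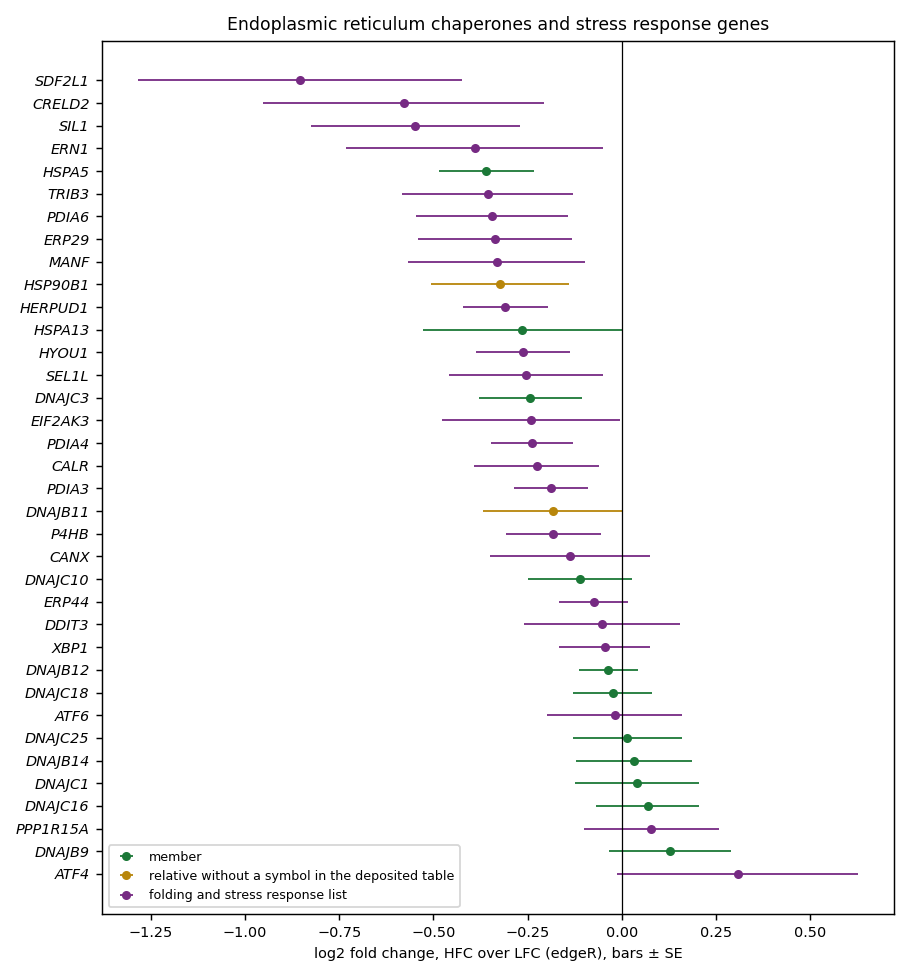
Log2 fold change of endoplasmic reticulum chaperones and stress response genes, HFC over LFC, from edgeR, with bars of 1 SE. Members are shown with 2 relatives that lack a symbol in the deposited table and the 23 genes of the wider list. Most points lie left of 0, from -0.85 for SDF2L1 to 0.31 for ATF4, while 5 of the members lie right of it.

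Mitochondrial members numbered 7, with 5 higher and 2 lower and a median log2 fold change of 0.02. HSPD1 (HSP60, ENSSSCG00000016077, chromosome 15, 101321360 to 101373878) and HSPE1 (HSP10, ENSSSCG00000016078, chromosome 15, 101373976 to 101376144) form the matrix chaperonin and its lid, and their genes lie 98 bp apart. The libraries keep no strand, so reads from the space between them could not be assigned by strand. HSPD1 had 207.8, 233.1 and 265.8 CPM in LFC and 188.4, 228.8 and 324.5 CPM in HFC, with a log2 fold change of -0.01 (SE 0.12, 95% interval -0.25 to 0.23, exact permutation p = 0.791). The HFC libraries spread over a wider range on both sides.

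HSPE1 had 109.1, 148.8 and 294.0 CPM in LFC and 116.9, 148.3 and 226.6 CPM in HFC. The medians were almost equal and the top library was LFC replicate 5. The log2 fold change of HSPE1 was 0.00 (SE 0.20, exact permutation p = 0.930), and it ranged from -0.09 to 0.19 on leaving out 1 library.

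DNAJC19 (ENSSSCG00000011770), a J protein of the import motor, had 19.2, 20.1 and 32.8 CPM in LFC and 17.9, 22.6 and 36.4 CPM in HFC, with a log2 fold change of 0.19 (SE 0.16, exact permutation p = 0.264). The 3 libraries that stood apart were its 3 highest, between 32.8 and 36.4 CPM, and the other 13 lay at or below 25.2 CPM. Without these 3 its log2 fold change was 0.09, as it was without HFC replicate 13, and it was 0.29 without LFC replicate 5. DNAJC30 (ENSSSCG00000007712), which lies in the mitochondrial inner membrane, rested on few counts, with 2.09, 2.46 and 3.13 CPM in LFC and 2.33, 2.85 and 4.06 CPM in HFC and a log2 fold change of 0.24 (SE 0.16, exact permutation p = 0.0628). DNAJC11, DNAJA3 and DNAJC15 had log2 fold changes of -0.09, 0.03 and 0.02. HSPA9 (mortalin), the matrix HSP70 and again no member, had 261.3, 281.5 and 326.9 CPM in LFC and 240.8, 260.5 and 324.7 CPM in HFC, with a log2 fold change of -0.11 (SE 0.09, exact permutation p = 0.0726).

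The small heat shock proteins hold unfolded proteins without ATP and are abundant in muscle. All 4 had a positive log2 fold change, with a median of 0.13, but 0 of the 4 had an unadjusted p under 0.05. HSPB1 (HSP27, ENSSSCG00000039962, chromosome 3, 10037946 to 10039704) had 99.1, 163.8 and 588.4 CPM in LFC and 137.2, 173.7 and 442.1 CPM in HFC. LFC replicate 5, HFC replicate 14 and HFC replicate 13, at 588.4, 442.1 and 298.7 CPM, were the highest, and the other 13 libraries lay at or below 184.1 CPM. Its log2 fold change was 0.05 (SE 0.35, exact permutation p = 0.655), and a single library set its direction, with -0.19 without HFC replicate 14 and 0.49 without LFC replicate 5.

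HSPB6 (HSP20, ENSSSCG00000023498), which is typical of smooth and striated muscle, had 29.1, 38.02 and 50.4 CPM in LFC and 29.4, 47.2 and 88.6 CPM in HFC. In 4 HFC libraries it lay above the highest LFC library, and in HFC replicate 15 it was near the lowest. Its log2 fold change was 0.31 (SE 0.19, exact permutation p = 0.222), and 0.13 without HFC replicate 14, the library at 88.6 CPM. HSPB8 (HSP22, ENSSSCG00000009844), which works with BAG3 in autophagy, had 79.7, 98.2 and 121.3 CPM in LFC and 59.2, 95.6 and 249.8 CPM in HFC. Again HFC replicate 14 was the highest, and the log2 fold change of 0.16 (SE 0.24, exact permutation p = 0.935) was -0.13 without it. HSPB2 had a log2 fold change of 0.10, which was -0.04 without that library.

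The same library carried the highest level of DES (desmin) of all 16, 1340 CPM against at most 53.5 CPM in LFC. For DES the log2 fold change was 3.62 (SE 1.28, exact permutation p = 0.704, adjusted p = 0.654 in edgeR). It belongs to 8 smooth muscle and pericyte genes, of which 3 were higher and 5 lower in HFC with a median of -0.20. Their summed level was 63.3, 98.8 and 382 CPM in LFC and 46.9, 109 and 1544 CPM in HFC, with DES making up most of the highest value. ACTA2, MYH11, TAGLN, MYL9 and PDGFRB were lower in HFC replicate 14 than in LFC replicate 5, while CNN1 and RGS5 were higher. In LFC replicate 5, HSPB6 was at 35.2 and HSPB8 at 97.7 CPM, inside the range of the other LFC libraries. The part of the smooth muscle and pericyte genes in the HSPB6 and HSPB8 levels was not tested.

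J proteins of vesicles and endosomes numbered 3. DNAJC6 (auxilin, ENSSSCG00000003807, chromosome 6, 146990109 to 147160915), which recruits HSPA8 to clathrin coats in neurons, had 16.4, 131.0 and 185.6 CPM in LFC and 49.4, 98.1 and 152.6 CPM in HFC. LFC replicate 5 stood alone at 16.4 CPM, followed by HFC replicates 14 and 13 at 49.4 and 51.2 CPM. The log2 fold change was -0.30 (SE 0.34, exact permutation p = 0.746), and it was -0.47 without LFC replicate 5. DNAJC5 (cysteine string protein, found on secretory vesicles) and DNAJC13 (of endosomes) had log2 fold changes of -0.02 and 0.09.

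The 9 nuclear, ribosomal and other J proteins had 3 members higher and 6 lower in HFC, with a median log2 fold change of -0.06. DNAJC12 (ENSSSCG00000035600), a partner of HSPA8 in the folding of aromatic amino acid hydroxylases, had the most positive value of all members. It had 19.0, 24.2 and 28.2 CPM in LFC and 15.7, 20.2 and 82.6 CPM in HFC. The median was lower in HFC while the log2 fold change was 0.34 (SE 0.30, exact permutation p = 0.766), because HFC replicate 15 was at 82.6 CPM, and without that library it was -0.07. The other 8 were DNAJC14, DNAJC17, DNAJC2, DNAJC21, DNAJC24, DNAJC27, DNAJC8 and DNAJC9, with log2 fold changes from -0.13 (DNAJC17) to 0.02 (DNAJC21).

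A remaining 4 genes matched the rule by name. HSPA12A and HSPA12B are distant HSP70 relatives, at 0.06 and 0.09. HSPBP1, an exchange factor of HSP70, and HSPBAP1, which binds HSPB1, are partners and not heat shock proteins themselves, and had log2 fold changes of -0.11 and -0.09.

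Regulators and partners of the cytosolic chaperones gave the same picture of small differences. Of 26 heat shock factors and co-chaperones tested, 16 were higher and 10 lower in HFC, with a median of 0.01, and 0 had an unadjusted p under 0.05 in edgeR. HSF1, the factor that drives the inducible set, was at 0.01 (SE 0.17), and BAG3, one of its targets, at 0.14 (SE 0.20), and at -0.04 without HFC replicate 14. The 7 tested subunits of the cytosolic chaperonin TRiC had a median of 0.00, with 4 higher and 3 lower. Of 10 mitochondrial co-chaperones and proteases, 2 were higher and 8 lower, with a median of -0.07. Immediate early genes, which react within minutes of a stimulus, can respond to the handling of an animal or tissue. Of 9 such genes, 7 were higher and 2 lower in HFC with a median of 0.09 and a range of -0.88 to 1.69. In edgeR 1 of them, higher in HFC, had an unadjusted p under 0.05, and 0 were called. Their summed level overlapped between groups, at 230 to 769 CPM in LFC and 277 to 620 CPM in HFC. ATF3 was at 4.63 log2 CPM in HFC replicate 14 and at most 1.34 in the other libraries.

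Among the other cell types of the gland, the tested marker genes of pituicytes and glia were higher in 6 of 7 cases (median 1.29), and those of microglia and macrophages in 6 of 7 (median 0.41), with CX3CR1 at 1.51 (SE 0.47, edgeR adjusted p = 0.612). Endothelial genes were lower in 5 of 5 cases (median -0.17) and erythrocyte genes in 4 of 4 (median -0.26). The part of these cell types in the chaperone levels was not tested.

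The spread between animals set members apart more than the feed conversion groups did. Relative to genes of like level, the members with the widest within-group SD of log2 CPM were DNAJC6 (SD 0.89, ratio 2.89), HSPB1 (0.68, 2.14), HSPA13 (0.60, 1.92), HSPA4L (0.59, 1.60) and HSPB8 (0.48, 1.56). Without LFC replicate 5 and HFC replicates 13 and 14 the SD of DNAJC6 was 0.30 and that of HSPB1 was 0.27. HSPH1 was also wider than genes of like level, with a ratio of 1.26, and 1.75 without the 3 libraries. The cytosolic HSP90 transcripts were among the steady ones, with ratios of 0.414 for HSP90AA1 and 0.323 for HSP90AB1. HSPA5 was steady too, at 0.492, beside a median ratio of 0.838 over the members. For HSP90AA1, HSP90AB1 and HSPA5 the genes of like level were mostly less abundant ones, because few genes ranked higher. Those genes had median SDs of 0.46, 0.44 and 0.45, beside 0.31 for DNAJC6. The SDs of HSP90AA1, HSP90AB1 and HSPA5 themselves were 0.19, 0.14 and 0.22.

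The second question was whether inducible members and those grouped as constitutive varied together over the 16 libraries. Each correlation is between log2 CPM values, which share library, depth and scaling factor. Over all pairs of tested genes the median Pearson r was 0.00, and over the 1540 pairs of members it was 0.03. Within the 4 inducible members the median was 0.53 (6 pairs), and between inducible and constitutive cytosolic members 0.25 (56 pairs). Between inducible members and those of the endoplasmic reticulum it was -0.04, and with the mitochondrial members 0.18. Within the 14 constitutive members it was 0.05.

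These medians changed when the 3 libraries that stood apart were left out. Over the other 13 libraries the median r was 0.64 within the inducible set, 0.44 between inducible and constitutive cytosolic members and 0.07 between inducible and endoplasmic reticulum members. Within the constitutive members it was 0.10. The median was lower in 13 libraries than in 16 within the mitochondrial members, at 0.56 and 0.77, and within the endoplasmic reticulum members, at 0.20 and 0.48. Over all genes tested, 17.6% of pairs had an r above 0.5 in 16 libraries and 9.92% in 13.

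**Figure D4:**
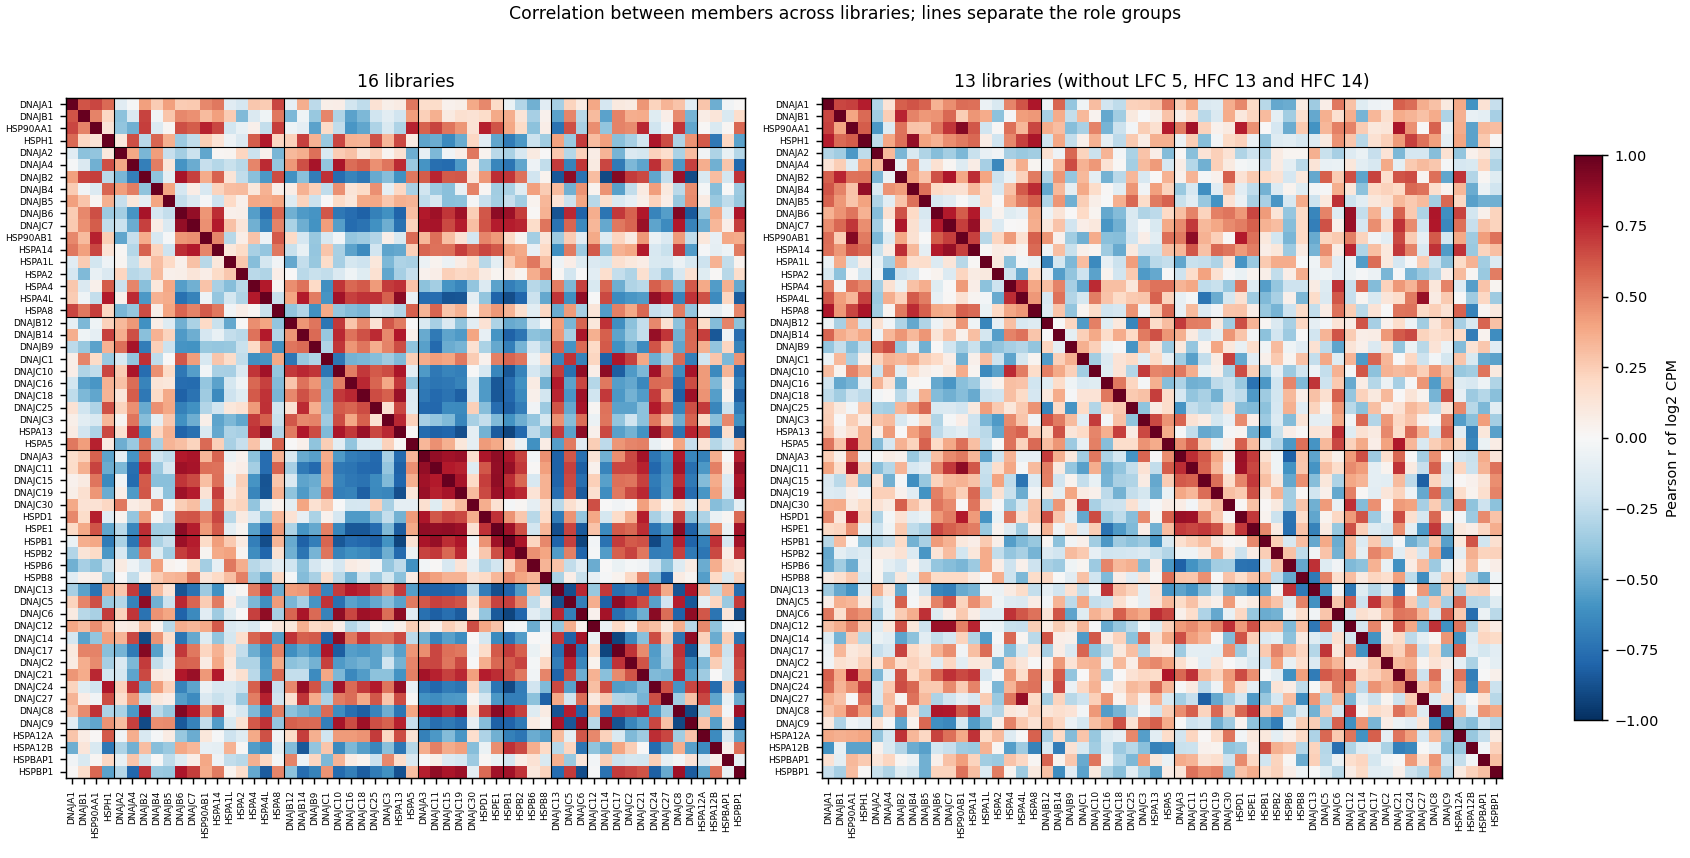
Pearson r of log2 CPM between all pairs of members, over 16 libraries (left) and over 13 libraries without LFC replicate 5, HFC replicate 13 and HFC replicate 14 (right). Lines separate the role groups, with the inducible members in the top left corner. The broad red and blue blocks of the left panel fade in the right one. There the inducible block (6 pairs, median 0.64) and the mitochondrial block (21 pairs, median 0.56) keep the highest medians.

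In all, 19 pairs of named chaperones and regulators were tested by permutation with p-values adjusted over the 19. HSPA5 and HSP90B1 had the highest r, 0.82 (permutation adjusted p = 0.00095), with a rho of 0.81 (permutation adjusted p = 0.0020). The relation was 0.82 within LFC and 0.86 within HFC, 0.75 without HFC replicates 16 and 11 and 0.87 in the 13 libraries. HSPA5 and its J partner DNAJB11 had an r of 0.74 (permutation adjusted p = 0.00589, rho 0.78), 0.89 within LFC and 0.86 within HFC. With DNAJC3, by contrast, HSPA5 had an r of 0.23 (permutation adjusted p = 0.531, rho 0.34), which was 0.45 over the 13 libraries. Within the groups it was weakly negative, at -0.15 in LFC and -0.11 in HFC.

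The cytosolic HSP90 genes HSP90AA1 and HSP90AB1 had an r of 0.77 (permutation adjusted p = 0.00589, rho 0.72), which was 0.88 without HFC replicates 16 and 13. HSPA8 and HSP90AB1 had an r of 0.62 (permutation adjusted p = 0.0251) and a rho of 0.55 (permutation adjusted p = 0.0676). Their r was 0.37 without HFC replicate 16 and LFC replicate 5, 0.60 over the 13 libraries, 0.43 within LFC and 0.73 within HFC. As paralogs, HSP90AA1 and HSP90AB1 may share some reads.

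The chaperonin pair HSPD1 and HSPE1 had an r of 0.72 (permutation adjusted p = 0.00589) and a rho of 0.84 (permutation adjusted p = 0.0019). It was 0.60 within LFC, 0.89 within HFC and 0.67 without HFC replicates 13 and 12. With total count scaling in place of TMM it was 0.41. HSPA9 and HSPD1 had an r of 0.50 (permutation adjusted p = 0.0875) and a rho of 0.65 (permutation adjusted p = 0.0320), and over the 13 libraries the r was 0.80.

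HSPH1 was paired with the most genes, as a member that responds strongly to heat shock. With CHORDC1, a co-chaperone of HSP90, its r was 0.74 (permutation adjusted p = 0.00589, rho 0.59), and with DNAJA1 it was 0.57 (permutation adjusted p = 0.0457, rho 0.61). Both were lower without the 2 libraries farthest from the median, to 0.45 and 0.38, while over the 13 libraries they were 0.61 and 0.78. With HSPA8 the r was 0.21 over 16 libraries (permutation adjusted p = 0.533, rho 0.19) and 0.82 over 13, with HSP90AA1 0.13 (permutation adjusted p = 0.714, rho 0.18) and 0.60, and with DNAJB1 0.20 (permutation adjusted p = 0.533, rho 0.41) and 0.57. With total count scaling in place of TMM, r over 16 libraries was 0.49 with HSPA8, 0.54 with HSP90AA1 and 0.51 with DNAJB1. It was 0.79 with DNAJA1 and 0.84 with CHORDC1, so these values depended on the scaling as well as on the libraries. In LFC replicate 5, HSPH1 was the lowest of all libraries while HSPA8 was the highest.

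HSPH1 and HSPB1 ran opposite, with an r of -0.70 (permutation adjusted p = 0.00706) and a rho of -0.51 (permutation adjusted p = 0.103). Without LFC replicate 5 and HFC replicate 14 the r was -0.40. Over the 13 libraries it was -0.39, with a rho of -0.19. The relation was thus weaker without libraries that stood apart, and its remaining negative sign was not tested there. HSP70.2 and DNAJB1 had an r of 0.61 (permutation adjusted p = 0.0320) and a rho of 0.37 (permutation adjusted p = 0.266). Their r was 0.29 without LFC replicates 4 and 5, 0.77 over the 13 libraries, 0.90 within LFC and 0.38 within HFC. The remaining pairs of HSPH1 had an r of 0.34 with FOS, 0.08 with HSPA5, -0.11 with HSPD1, -0.35 with HSP70.2 and -0.41 with HSF1, and 0 of these 5 had a permutation adjusted p under 0.05. Over the 13 libraries the same pairs were at 0.17, 0.36, 0.23, 0.27 and 0.24, so the sign turned for HSPD1, HSP70.2 and HSF1. With total count scaling over all libraries they were at 0.48, 0.38, 0.36, -0.02 and -0.25.

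**Figure D5:**
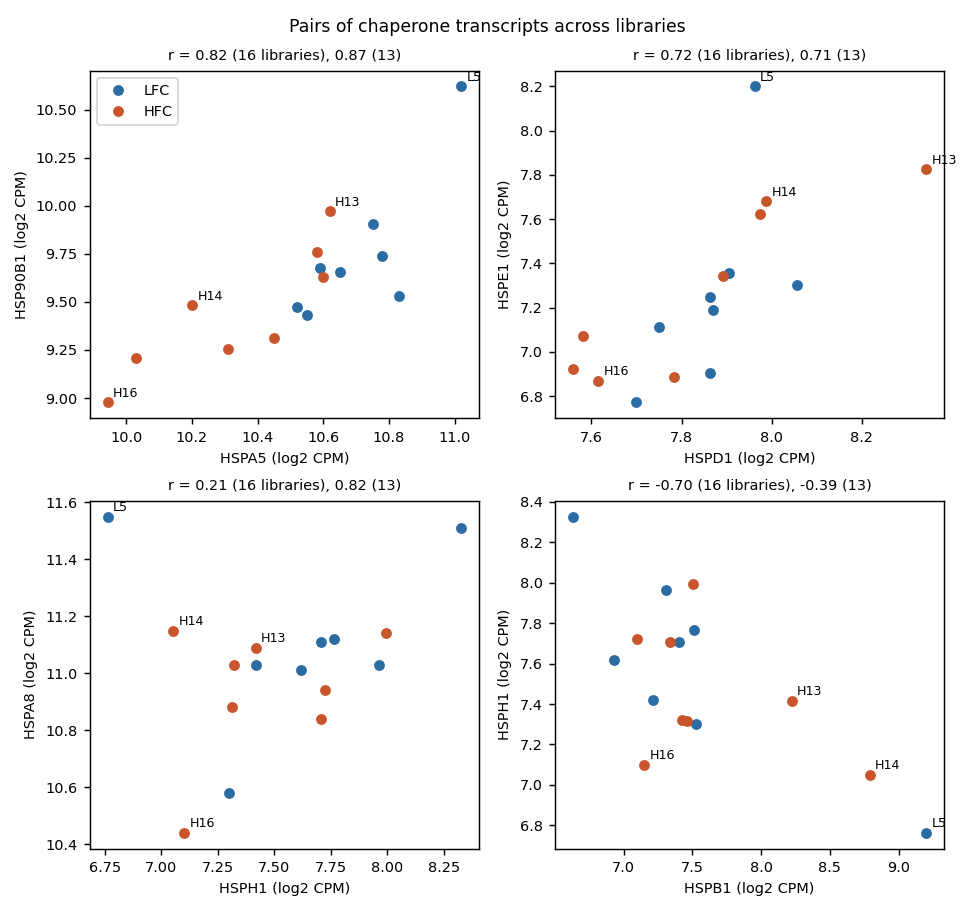
Log2 CPM of 4 pairs of chaperone transcripts, 1 point per library, with the libraries that stand apart marked as L5, H13, H14 and H16. HSPA5 and HSP90B1 (r = 0.82) and HSPD1 and HSPE1 (r = 0.72) follow each other in both groups, HSPH1 and HSPA8 reach 0.82 only over 13 libraries, and the negative slope of HSPB1 against HSPH1 is steepest with L5 and H14 (r = -0.70, and -0.40 without them).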

How the data were processed

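Poly(A) libraries without strand information were sequenced as single reads. According to the labels and methods, the authors checked and trimmed the reads (FastQC, Flexbar), mapped them on Sscrofa11.1 with Ensembl gene models (STAR and RSEM are named, and also Bowtie 2) and deposited raw counts per gene, 1 column per library. Technical repeats were merged in a way not stated. The separate deposited table of the authors' comparison, with group means, fold changes and p-values, served for symbols and coordinates only. The extraction label speaks of fat samples, the tissue label of pituitary.

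Groups were compared with edgeR 4.0.16 (R 4.3.3; glmQLFit and glmQLFTest, TMM, filterByExpr, no covariate) on all 25880 genes, of which 19572 had a count and 14319 were tested, with Benjamini-Hochberg adjustment over these. Replicates are separate animals. CPM were TMM-scaled, and log2 CPM used a prior count of 2. Exact permutation tests ran over 12870 assignments, two-sided, and correlations over 100000 resamples (scipy 1.17.1). Genes of like level were the 200 nearest on each side by mean log2 CPM, or fewer where the ranking ended. HSP90AA1, HSP90AB1, HSPA5 and HSPA8 had fewer than 200 genes above them. Alternatives were DESeq2 1.42.0, limma-voom (limma 3.58.1), other scalings and filters, and left-out libraries. The edgeR step was tested on simulated data.

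Members were picked by the naming rule alone, but that rule and the lists were set with earlier results of these data known. Named genes were the inducible members, main HSPs by name, the 5 smallest p in each direction, the 5 widest spreads, HSPB6 and list genes with p under 0.05 (at most 4). Gene lengths were not used here, so CPM are not compared between genes and naming by level per length was dropped, as was the pair of HSPB6 with HSPB7. Symbols of 6 relatives came from gene name tables. No sequence was used here.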

Additional observations from a re-analysis of the deposited data

Results flagged for a closer look

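In 8 of 44 checks of a named member within a group of 8 libraries, 1 library lay far from the others by Dixon's criterion, which chance meets in about 1 in 20 groups. Some of these members were named for their wide spread, so the number met cannot be set against that rate. The values are log2 CPM. In LFC replicate 5, the library farthest out on the first principal component, 3 members were far below the other LFC libraries: DNAJC6 at 4.04 (others 6.78 to 7.54), HSPA13 at 6.27 (others 7.47 to 8.34) and HSPA4L at 3.57 (others 4.77 to 5.53). In the same library 3 members were far above: HSPB1 at 9.20 (others 6.63 to 7.53), HSPE1 at 8.20 (others 6.77 to 7.36) and DNAJC19 at 5.04 (others 4.27 to 4.56). HSPA8 was lowest in HFC replicate 16, at 10.4 (others 10.8 to 11.2). DNAJB1 was lowest in LFC replicate 4, at 6.06 (others 6.55 to 6.98). So 6 of the 8 values came from 1 library.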

How the results depend on the processing

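The number of members called was 0 in the main fit and in all 26 alternatives, 1 of which dropped the fold minimum. HSPA5 kept its direction and an unadjusted p under 0.05 in the 25 alternatives with a fit of their own. The number of members at an unadjusted p under 0.05 ranged from 1 to 5 on leaving out 1 library. It was 5 without LFC replicate 5 (DNAJC10, DNAJC3, DNAJC6, HSPA4 and HSPA5), where 11.9% of all genes passed, and 2 without HFC replicate 15 or HFC replicate 16. Without LFC replicate 5 and HFC replicate 16 together it was 7, where 12.2% of all genes passed. The cause was not tested. Directions that changed belonged to members near 0 or carried by 1 library: HSPE1 was at -0.0063 with DESeq2, -0.0062 with RLE scaling and -0.0055 with no filter. Without the 3 libraries that stood apart DNAJB1 was at 0.0070 and HSPB8 at -0.13, and without LFC replicate 5 and HFC replicate 16 DNAJB1 was at 0.076 and HSPD1 at 0.035. Leaving out 1 library gave ranges of -0.086 to 0.19 for HSPE1, -0.094 to 0.022 for HSPD1, -0.11 to 0.022 for DNAJB1, -0.19 to 0.49 for HSPB1, -0.13 to 0.24 for HSPB8 and -0.075 to 0.43 for DNAJC12. Log2 fold changes of named members kept their direction in 519 checks and changed it in 31. No paired analysis was possible because the replicate numbers of the groups do not overlap. With 8 animals a group and a biological coefficient of variation of 38.6%, the 95% interval reached a 1.3-fold change for all but 24 members.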
